A study of Mus musculus with 20 samples.

Results

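The 9 genes Ly6c2, Ccr2, Ms4a4c, Ms4a6b, Ms4a6c, Ms4a6d, Plac8, Chil3 and Itgam, which mark recruited Ly6C-high monocytes, were followed across liver RNA libraries from wild-type and STING knockout mice. They were taken by name from the 54532 gene entries of the deposited table, which held all 9. The 20 libraries formed 4 groups of 5: wild type after sham surgery (Sham_Wt), knockout after sham surgery (Sham_KO), wild type after bile duct ligation (BDL_Wt) and knockout after bile duct ligation (BDL_KO). Ligation, which blocks bile outflow and causes cholestasis, lasted 7 days. STING is encoded by Tmem173, the gene targeted in both knockout groups. The strain, age and sex of the mice, the time after sham surgery and the part of Tmem173 that was deleted are not given in the sources used here.

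Mouse blood monocytes fall into a Ly6C-high inflammatory subset and a Ly6C-low patrolling subset. Ly6C-high monocytes need the chemokine receptor CCR2 to leave the bone marrow, follow its ligands, above all CCL2, into injured liver, and lower Ly6C as they mature into macrophages. Ly6c2 encodes a lipid-anchored surface protein that is the main Ly6C antigen of these monocytes, Ccr2 the receptor and Itgam the integrin subunit CD11b. The Ms4a genes encode membrane-spanning proteins of the MS4A family, whose myeloid members are abundant in monocytes and macrophages. Plac8 encodes a small cysteine-rich protein and Chil3 the secreted chitinase-like protein Ym1, so these 2 genes mark the cells without being typical surface antigens.

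All positions are on GRCm38. Ly6c2 (ENSMUSG00000022584) lies on chromosome 15 from 75108158 to 75111970, minus strand, and Ccr2 (ENSMUSG00000049103) on chromosome 9 from 124101950 to 124113557, plus strand. The 4 Ms4a genes lie in 1 stretch of chromosome 19, in the order Ms4a4c (11404770 to 11427246), Ms4a6c (11469366 to 11482192), Ms4a6b (11516512 to 11531256) and Ms4a6d (11586604 to 11604849), with Ms4a6d on the minus strand. Plac8 lies on chromosome 5 from 100553725 to 100572245 and Chil3 on chromosome 3 from 106147554 to 106167564, both on the minus strand. Itgam lies on chromosome 7 from 128062640 to 128118491, plus strand.

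Promoter windows from the RefSeq table (GRCm38.p6), from 250 bases before to 50 after a gene's start, were found for 8 of the 9 genes, with none for Ms4a6d. They were searched on both strands for a PU.1 core (GAGGAA), an interferon-stimulated response element (GAAANNGAA), a C/EBP motif (TTNCNNAA) and a gamma-activated site (TTCNNNGAA). The PU.1 core was found in the windows of 4 of the 8 genes, Ly6c2, Ms4a4c, Plac8 and Itgam, and in 28.3% of the first windows of all 27025 genes. The interferon-stimulated response element was found in 4 of 8, Ccr2, Ms4a6b, Ms4a6c and Chil3, against 8.57% of all genes. The C/EBP motif was found in 8 of 8 against 40.7%, and the gamma-activated site in 1 of 8, Chil3, against 8.47%. Windows of 3 genes are shown: Ly6c2, which the results below turn on, and the neighbouring paralogs Ms4a6b and Ms4a6c, of which Ms4a6c passed the test for ligation in the knockout and Ms4a6b did not. Capitals mark PU.1 cores and interferon-stimulated response elements, and C/EBP motifs are not marked. The windows are chr15:75111922-75112221 (minus strand), chr19:11518309-11518608 (plus strand) and chr19:11469118-11469417 (plus strand).
Ly6c2: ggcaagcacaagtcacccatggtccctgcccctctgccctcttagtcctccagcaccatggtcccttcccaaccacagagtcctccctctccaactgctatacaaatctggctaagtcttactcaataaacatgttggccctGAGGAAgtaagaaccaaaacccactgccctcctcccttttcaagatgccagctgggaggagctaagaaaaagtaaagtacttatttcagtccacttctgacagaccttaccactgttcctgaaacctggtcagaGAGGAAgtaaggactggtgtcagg
Ms4a6b: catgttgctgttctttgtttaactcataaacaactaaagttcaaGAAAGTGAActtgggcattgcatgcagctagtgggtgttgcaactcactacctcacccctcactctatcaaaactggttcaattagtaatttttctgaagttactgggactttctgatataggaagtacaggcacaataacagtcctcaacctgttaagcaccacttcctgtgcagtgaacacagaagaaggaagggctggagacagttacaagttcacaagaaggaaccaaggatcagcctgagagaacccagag
Ms4a6c: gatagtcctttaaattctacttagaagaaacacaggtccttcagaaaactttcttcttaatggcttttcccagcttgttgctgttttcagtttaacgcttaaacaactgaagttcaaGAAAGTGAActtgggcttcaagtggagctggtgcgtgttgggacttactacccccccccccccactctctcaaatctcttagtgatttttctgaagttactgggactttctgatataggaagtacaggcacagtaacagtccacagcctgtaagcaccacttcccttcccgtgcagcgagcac
Ms4a6b and Ms4a6c carry the same 9 letters, GAAAGTGAA, at positions -206 and -133 from the start. A match describes these letters only, and binding was not measured.

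Levels are in FPKM, fragments per 1 kilobase of transcript and 1 M of library size. That size followed median-ratio scaling across libraries and was not the plain count of assigned fragments. For BDL_KO_2248 it was 13.6 M against 18.3 M assigned, and for BDL_Wt_2236 21.4 M against 18.6 M. Between 14.9 and 20.9 M gene-assigned fragments were recovered per library, and a single fragment on a transcript of 1 kilobase corresponded to 0.0467 to 0.0734 FPKM. Levels far below 0.5 FPKM are thus counts of a few fragments on short transcripts. Longer ones hold more, and 0.207 FPKM of Ccr2 in Sham_Wt_2229 was 28 fragments. Values per library are given in a fixed order, which in the ligated knockout is BDL_KO_2359, BDL_KO_2365, BDL_KO_2248, BDL_KO_2370 and BDL_KO_2371. Tmem173 measured 1.87, 0.843, 1.79, 1.69 and 2.34 FPKM in the sham wild-type libraries and 1.06, 0.617, 0.588, 0.718 and 0.730 in the sham knockout libraries. After ligation it measured 2.89, 2.60, 4.60, 3.91 and 4.20 FPKM in wild type and 0.840, 1.38, 0.638, 2.57 and 1.66 in the knockout. The sham groups overlapped and the ligated groups did not, and transcript remained in every knockout library. The difference was -0.80 ± 0.24 log2 units after sham surgery (limma adjusted p = 0.0779) and -1.17 ± 0.24 after ligation (adjusted p = 0.00444). Since the deleted part is not given, a level over the whole transcript is a weak check of the labels. A pair of ligated knockout libraries stood apart: in BDL_KO_2248 and BDL_KO_2359, 6 pan-leukocyte genes (Ptprc, Laptm5, Tyrobp, Fcer1g, Coro1a and Cd53) summed to 36.1 and 49.1 FPKM, against 104 to 131 in the other 3. Their 6 hepatocyte genes summed to 51369 and 42153 FPKM, against 28670 to 32231. Main results on the ligated knockout group are therefore given with and without these 2 libraries. They were chosen with earlier results known and held the lowest values of that group for most of the genes followed here. Leaving them out thus raises the group's means by construction. Results without them show how far a call depends on them and are not separate tests. Y-linked transcripts were present in 2 Sham_Wt, 3 Sham_KO, 3 BDL_Wt and 2 BDL_KO libraries, and Xist in the others.

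Each change below is a difference between group means on the log2(FPKM + 0.5) scale, given with its standard error. It comes from limma, fitted to the 14059 genes that reached 0.5 FPKM in at least 5 libraries, with p-values adjusted over all of them. This scale understates changes of low genes. A gene is said to have risen or fallen where its adjusted p was under 0.05. All 9 genes passed the filter, but Ccr2, Chil3 and Itgam reached 0.5 FPKM in ligated livers only, so counts over the 9 genes describe them and support nothing further. Nothing in the labels says that the livers of a group came from separate animals, so each p-value covers only how these libraries varied, which may be technical. In whole liver, fewer cells of a type and less RNA per cell cannot be told apart. Comparisons below that use the same group share its libraries.

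In wild-type liver all 9 genes rose after ligation, and all 9 did so without overlap between the groups. Among all genes tested, 18.1% rose and 16.6% were higher without overlap. Over the 9 genes the median change was 2.18 log2 units, against -0.02 over all genes. In knockout liver 6 of the 9 rose (12.3% of all genes) and 3 lay higher without overlap (5.85% of all genes), with a median change of 0.84 against -0.01. Ly6c2, Ms4a4c and Ms4a6b were the 3 that did not pass. Between ligated knockout and ligated wild-type liver, 8 of the 9 fell (5.37% of all genes) and 7 lay lower without overlap (3.33% of all genes), with a median change of -1.70 against 0.01. Without BDL_KO_2248 and BDL_KO_2359, 8 rose in the knockout with a median of 1.35, and 7 fell between the ligated genotypes with a median of -1.42. In that fit 21.5% of all genes rose in wild type and 18.8% in the knockout, while 4.28% fell in the knockout after sham surgery and 3.36% after ligation. Counts given below for lists of other genes can be read beside these shares and those above.

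Ly6c2 and Ms4a4c had the largest differences of the 9 between the ligated genotypes. Ly6c2 measured 0.930, 0.635, 1.54, 0.828 and 1.48 FPKM in sham wild-type liver and 5.07, 2.87, 11.6, 5.36 and 12.0 FPKM in ligated wild-type liver. In sham knockout liver it measured 0.0263, 0.104, 0.165, 0.325 and 0.227 FPKM, and in ligated knockout liver 0.146, 0.315, 0.0536, 0.560 and 0.282 FPKM. The 5 ligated knockout values all lay below the lowest sham wild-type value and overlapped those of sham knockout liver. They rest on 2 to 28 fragments per library, against 142 to 679 in ligated wild-type liver.

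Ligation raised Ly6c2 by 2.18 ± 0.29 log2 units in wild type (limma adjusted p = 2.15e-05). In the knockout the difference was 0.19 ± 0.29 (adjusted p = 0.685), and 0.41 ± 0.34 without BDL_KO_2248 and BDL_KO_2359 (adjusted p = 0.371). After ligation Ly6c2 fell by 3.21 ± 0.29 in knockout against wild type (adjusted p = 3.29e-06), the 12th lowest of the 14059 differences in that comparison. Without those 2 libraries it fell by 2.99 ± 0.34. Of the 9 genes, Ly6c2 had the only response to ligation whose difference between genotypes passed the test, at -1.99 ± 0.42 log2 units (adjusted p = 0.0397; 0.22% of all genes passed in this direction). That call was narrow: 16 of the 20 fits that left out 1 library no longer made it, with adjusted p-values reaching 0.0937, and those without BDL_Wt_2235, BDL_Wt_2237, BDL_KO_2365 or BDL_KO_2370 did. With BDL_KO_2248 and BDL_KO_2359 both left out the value was -1.77 ± 0.45 (adjusted p = 0.0643).

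The closest paralog, Ly6c1, which is expressed by endothelial and other cells, shares 9.46% of the 75-base stretches of Ly6c2 transcripts, so part of the Ly6c2 reads could be split between them. Ly6c1 ranged from 0.0385 to 1.18 FPKM over the 20 libraries and passed in no comparison, with a difference of -0.35 ± 0.23 between the ligated genotypes (adjusted p = 0.372). Ly6a, another Ly6 family gene and the interferon-inducible antigen Sca-1, fell in the knockout after sham surgery by 2.61 ± 0.47 (adjusted p = 0.0067) and after ligation by 2.40 ± 0.47 (adjusted p = 0.00383).

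**Figure D1:**
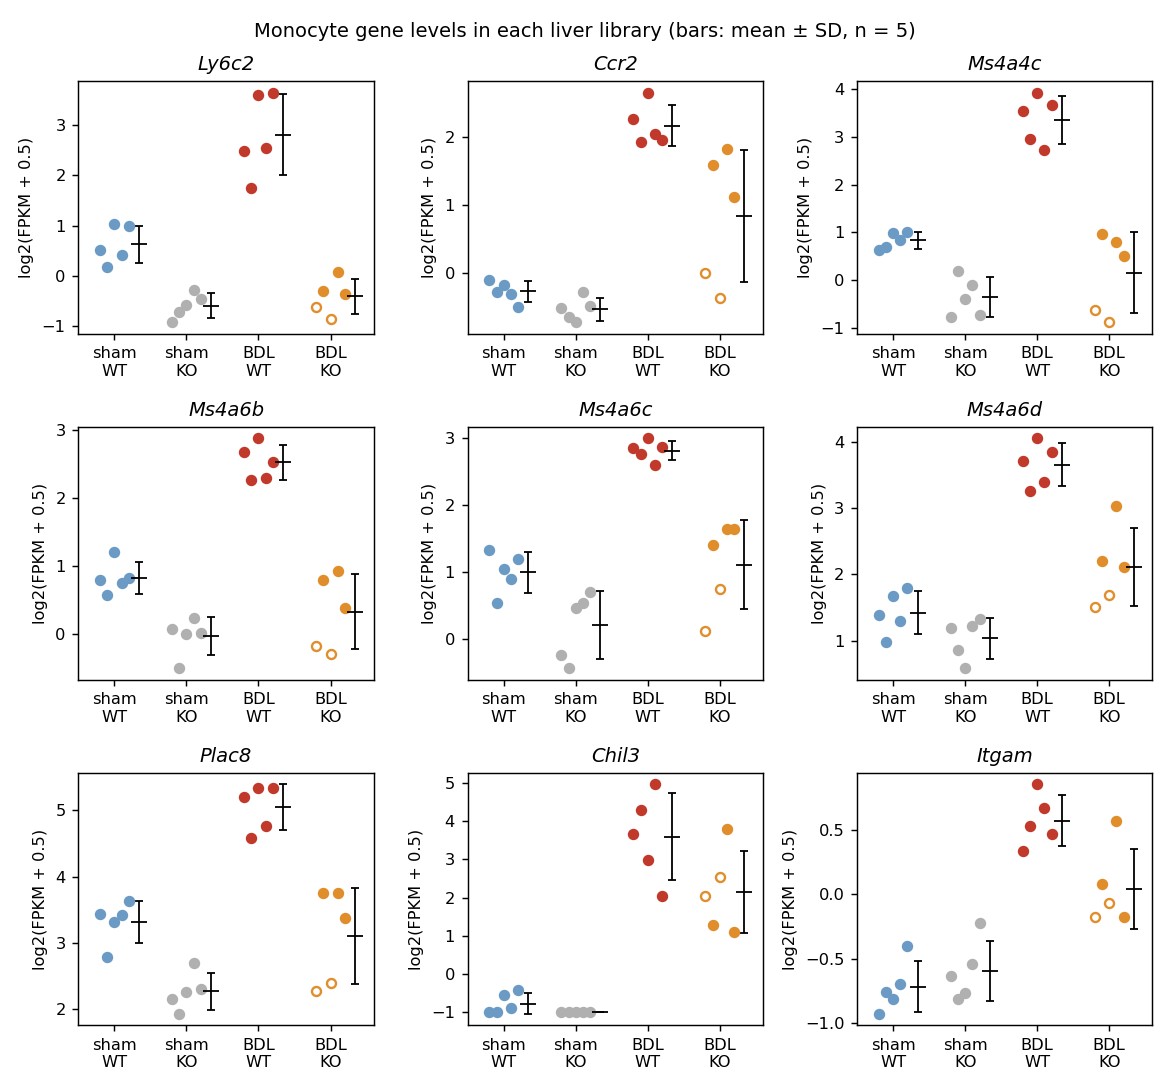
Level of each of the 9 genes as log2(FPKM + 0.5) in every library, by group (WT wild type, KO knockout), with bars for mean ± SD (n = 5). Open circles are BDL_KO_2248 and BDL_KO_2359. Ligated wild-type libraries lie above sham wild-type libraries for all 9 genes, and ligated knockout libraries of Ly6c2 lie below all sham wild-type libraries.

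Ccr2, the receptor for CCL2, followed another order. It measured 0.435, 0.327, 0.388, 0.309 and 0.207 FPKM in sham wild-type liver and 4.29, 3.29, 5.76, 3.59 and 3.35 FPKM after ligation. In knockout liver it measured 0.202, 0.137, 0.105, 0.320 and 0.212 FPKM after sham surgery and 0.503, 2.49, 0.272, 3.04 and 1.66 FPKM after ligation. The ligated knockout values all lay below the lowest ligated wild-type value of 3.29, and BDL_KO_2248 and BDL_KO_2359 lay among or just above the sham livers.

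Ccr2 rose by 2.43 ± 0.31 log2 units in wild type (adjusted p = 1.19e-05) and by 1.36 ± 0.31 in the knockout (adjusted p = 0.00391). Without the 2 low libraries the rise in the knockout was 2.04 ± 0.18. Ccr2 fell by 1.33 ± 0.31 between ligated knockout and ligated wild type (adjusted p = 0.0118), and by 0.66 ± 0.18 without the 2 libraries (adjusted p = 0.0333). The 2 sham groups differed by -0.26 ± 0.31 (adjusted p = 0.715). The difference between the responses was -1.07 ± 0.44 (adjusted p = 0.304), and -0.39 ± 0.23 without the 2 libraries.

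The ligated knockout thus held libraries with Ccr2 and little Ly6c2. In BDL_KO_2365, BDL_KO_2370 and BDL_KO_2371, Ccr2 lay between 1.66 and 3.04 FPKM, above every sham library, while Ly6c2 lay between 0.282 and 0.560. The FPKM ratio of Ly6c2 to Ccr2 was 0.871 to 3.59 in ligated wild type and 0.127 to 0.290 in ligated knockout, with no overlap. In sham livers that ratio was 1.94 to 7.14 in wild type and 0.130 to 1.57 in the knockout.

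**Figure D2:**
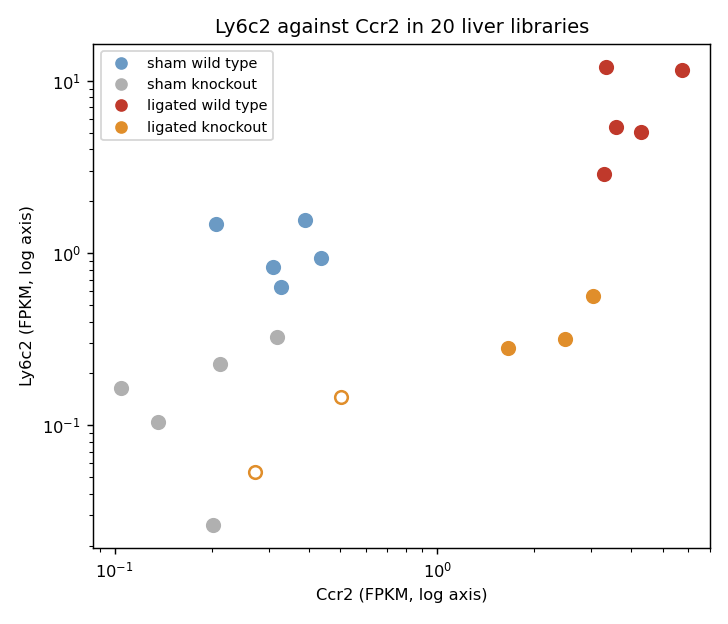
Ly6c2 against Ccr2 in each of the 20 libraries, both in FPKM on log axes and coloured by group, with open circles for BDL_KO_2248 and BDL_KO_2359. The 3 other ligated knockout libraries reach 1.66 to 3.04 FPKM of Ccr2 with 0.282 to 0.560 FPKM of Ly6c2, while ligated wild-type libraries hold 2.87 to 12.0 FPKM of Ly6c2.

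Of the 4 Ms4a genes, Ms4a4c and Ms4a6b rose with ligation in wild type and, like Ly6c2, did not pass in the knockout. Ms4a4c measured 1.04, 1.11, 1.497, 1.296 and 1.51 FPKM in sham wild type and 11.1, 7.24, 14.8, 6.13 and 12.2 after ligation. In the knockout it measured 0.0823, 0.649, 0.258, 0.435 and 0.107 FPKM after sham surgery and 0.152, 1.45, 0.0419, 1.25 and 0.915 after ligation. The ligated knockout values overlapped those of both sham groups and stayed far under the lowest ligated wild-type value.

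Ms4a4c rose by 2.53 ± 0.32 log2 units in wild type (adjusted p = 1.16e-05) and differed by 0.51 ± 0.32 in the knockout (adjusted p = 0.257). Without the 2 low libraries the difference in the knockout was 1.12 ± 0.25 (limma adjusted p = 0.00257), so the lack of a call depends on including them. Between the ligated genotypes Ms4a4c fell by 3.21 ± 0.32 (adjusted p = 7.39e-06), and by 2.61 ± 0.25 without the 2 libraries. The difference between the responses was -2.02 ± 0.45 (adjusted p = 0.0663), and without them -1.42 ± 0.34 (adjusted p = 0.0495). It also passed without BDL_Wt_2237, BDL_KO_2365 or BDL_KO_2370, with an adjusted p of 0.0352, 0.0327 and 0.0287.

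Ms4a6b measured 1.24, 0.985, 1.81, 1.17 and 1.26 FPKM in sham wild type and 5.85, 4.31, 6.82, 4.38 and 5.23 after ligation. Knockout livers measured 0.546, 0.206, 0.503, 0.680 and 0.513 FPKM after sham surgery and 0.387, 1.23, 0.311, 1.404 and 0.801 after ligation. Here too the ligated knockout reached at most the level of sham wild type. Ms4a6b rose by 1.70 ± 0.21 in wild type (adjusted p = 1.15e-05) and differed by 0.36 ± 0.21 in the knockout (adjusted p = 0.235), or by 0.73 ± 0.18 without the 2 libraries (adjusted p = 0.00482). The difference between its responses was -1.34 ± 0.30 (adjusted p = 0.0692), and passed without BDL_Wt_2237, BDL_KO_2365 or BDL_KO_2370 (adjusted p = 0.0480, 0.0393 and 0.0208). It fell by 2.20 ± 0.21 between the ligated genotypes (adjusted p = 7.03e-06) and by 1.82 ± 0.18 without the 2 low libraries.

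Ms4a6c and Ms4a6d rose in both genotypes. Ms4a6c measured 2.01, 0.947, 1.57, 1.37 and 1.78 FPKM in sham wild type and 6.69, 6.27, 7.45, 5.53 and 6.75 after ligation. In the knockout it measured 0.351, 0.243, 0.881, 0.961 and 1.12 FPKM after sham surgery and 0.586, 2.15, 1.18, 2.62 and 2.62 after ligation. It rose by 1.81 ± 0.27 in wild type and by 0.90 ± 0.27 in the knockout (adjusted p = 4.90e-05 and 0.0197). The call in the knockout was lost without Sham_KO_2347, Sham_KO_2349, BDL_KO_2370 or BDL_KO_2371, with an adjusted p of 0.0551, 0.0564, 0.0599 and 0.0518. The rise was 1.35 ± 0.23 without BDL_KO_2248 and BDL_KO_2359. Ms4a6c fell by 1.70 ± 0.27 between the ligated genotypes (adjusted p = 5.25e-04), with no overlap.

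Ms4a6d measured 2.11, 1.47, 2.68, 1.96 and 2.96 FPKM in sham wild type and 12.6, 9.07, 16.0, 9.94 and 13.8 after ligation. Levels in the knockout were 1.78, 1.31, 1.004, 1.83 and 2.01 FPKM after sham surgery and 2.35, 4.10, 2.71, 7.64 and 3.82 after ligation. All 5 ligated knockout values lay above all 5 sham knockout values, with BDL_KO_2370 the highest. Ms4a6d rose by 2.22 ± 0.24 in wild type and by 1.07 ± 0.24 in the knockout (adjusted p = 2.24e-06 and 0.00355), and fell by 1.54 ± 0.24 between the ligated genotypes (adjusted p = 4.53e-04). Leaving out the 2 low libraries gave a rise of 1.41 ± 0.24 in the knockout and a fall of 1.203 ± 0.24 between the genotypes. The difference between its responses was -1.16 ± 0.34 (adjusted p = 0.157), and passed without BDL_KO_2370 (adjusted p = 0.0262).

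Among the other MS4A family genes, 6 of 18 listed passed the filter, and 5 rose in wild type and 4 in the knockout. Ms4a4a, a macrophage member, rose by 3.09 ± 0.26 and 1.83 ± 0.26, and Ms4a8a by 1.81 ± 0.25 and 1.42 ± 0.25. Tmem176b and Tmem176a, related genes abundant in liver, rose by 1.28 ± 0.13 and 1.07 ± 0.14 in wild type and by 1.31 ± 0.13 and 1.01 ± 0.14 in the knockout. After ligation 2 of the 6 fell in the knockout against wild type, Ms4a4a by 1.47 ± 0.26 (adjusted p = 0.00133) and Ms4a7 by 0.77 ± 0.22 (adjusted p = 0.0369). Only 1 of the 6 fell without BDL_KO_2248 and BDL_KO_2359. Ms4a1, the B cell antigen CD20, had means of 0.0195 to 0.107 FPKM in the 4 groups.

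By group means Plac8 was the most abundant of the 9 genes per kilobase, though Chil3 exceeded it in BDL_Wt_2237, BDL_KO_2248 and BDL_KO_2370. It measured 10.3, 6.43, 9.43, 10.2 and 11.9 FPKM in sham wild type and 36.4, 23.4, 39.8, 26.8 and 40.1 after ligation. Levels in the knockout were 3.94, 3.30, 4.29, 5.99 and 4.42 FPKM after sham surgery and 4.32, 13.0, 4.75, 13.0 and 9.86 after ligation, so that the ligated knockout overlapped both sham groups. Plac8 rose by 1.73 ± 0.27 in wild type (adjusted p = 7.69e-05) and by 0.84 ± 0.27 in the knockout (adjusted p = 0.0286), or by 1.36 ± 0.21 without the 2 low libraries. The call in the knockout was lost without Sham_KO_2347, Sham_KO_2349, BDL_KO_2365, BDL_KO_2370 or BDL_KO_2371, with an adjusted p of 0.0585, 0.0676, 0.0835, 0.0877 and 0.0611. Between the ligated genotypes Plac8 fell by 1.94 ± 0.27 (adjusted p = 1.33e-04), without overlap, and by 1.42 ± 0.21 without the 2 libraries.

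Chil3 departed from the other genes. Sham wild-type libraries held 0, 0, 5, 1 and 8 fragments, up to 0.245 FPKM, and all 5 sham knockout libraries were at 0. After ligation it measured 12.2, 19.2, 7.35, 30.8 and 3.65 FPKM in wild type and 3.597, 1.91, 5.26, 13.3 and 1.66 in the knockout. Every ligated library was above every sham library, the 2 ligated groups overlapped, and BDL_KO_2248 and BDL_KO_2359 were not the lowest of their group. The same held for Itgam, where BDL_KO_2359 and BDL_KO_2371 were both at 0.385 FPKM.

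Chil3 rose by 4.37 ± 0.47 log2 units in wild type (adjusted p = 2.03e-06), and the size of this value depends on the 0.5 FPKM that was added. In the knockout it rose as well (adjusted p = 1.33e-04), and set against 3 fragments over the sham knockout group its mean after ligation was at least 210-fold higher, or at least 127-fold without BDL_KO_2370, the highest library. Between the ligated genotypes it differed by -1.45 ± 0.47 (adjusted p = 0.0595), which passed without BDL_Wt_2240 (adjusted p = 0.0170) or BDL_KO_2370 (adjusted p = 0.00678). With both low libraries left out it rose by 3.06 ± 0.57 in the knockout and differed by -1.54 ± 0.57 between the genotypes (adjusted p = 0.123). Of the 75-base stretches of Chil3, 13.0% are shared with other genes, most with its paralog Chil4.

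Itgam was the lowest of the 9 genes after ligation in wild type. It measured 0.0260, 0.0933, 0.0712, 0.119 and 0.258 FPKM in sham wild type and 0.761, 0.948, 1.31, 1.09 and 0.887 after ligation. Knockout livers measured 0.143, 0.0707, 0.0899, 0.190 and 0.359 FPKM after sham surgery and 0.385, 0.558, 0.453, 0.981 and 0.385 after ligation. Ligated and sham knockout livers did not overlap, and the 2 ligated groups did, through BDL_KO_2370. Itgam rose by 1.29 ± 0.16 in wild type (adjusted p = 1.06e-05) and by 0.64 ± 0.16 in the knockout (adjusted p = 0.00795). Between the ligated genotypes it fell by 0.53 ± 0.16 (adjusted p = 0.0483), a call made without Sham_Wt_2229, Sham_KO_2353 or BDL_KO_2370 but lost in the other 17 of the 20 fits without 1 library, with adjusted p-values reaching 0.140. The difference was -0.42 ± 0.19 without BDL_KO_2248 and BDL_KO_2359 (adjusted p = 0.206). Its level is uncertain, because 65.2% of its 75-base stretches are shared with the overlapping entry Gm49368, which was at 0 in 19 of the 20 libraries.

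**Figure D3:**
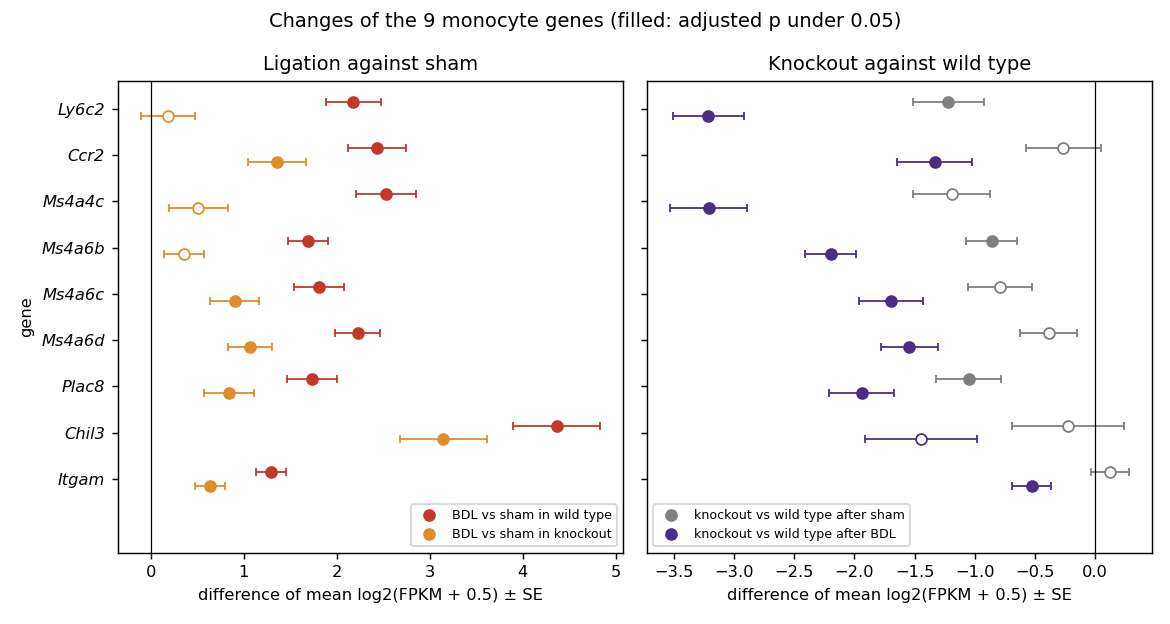
Difference of mean log2(FPKM + 0.5) ± standard error for each gene, for ligation against sham in each genotype (left) and for knockout against wild type after each surgery (right), with filled points where the adjusted p was under 0.05. Ly6c2, Ms4a4c and Ms4a6b have open points for ligation in the knockout, and Ly6c2 and Ms4a4c lie lowest after ligation on the right.

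Without ligation, 3 of the 9 genes were lower in the knockout than in wild type and passed the test, against 1.66% of all genes. Ly6c2 fell by 1.22 ± 0.29 (adjusted p = 0.0308), Ms4a6b by 0.86 ± 0.21 (adjusted p = 0.0369) and Plac8 by 1.05 ± 0.27 (adjusted p = 0.0416). Ms4a4c differed by -1.19 ± 0.32 (adjusted p = 0.0503). These 4 genes were lower without overlap, as were 4.58% of all genes. Ms4a6c differed by -0.79 ± 0.27 (adjusted p = 0.122) and Ms4a6d by -0.39 ± 0.24 (adjusted p = 0.431). Itgam differed by 0.12 ± 0.16 (adjusted p = 0.753). The calls were narrow: the Ly6c2, Ms4a6b and Plac8 calls were lost in 7, 8 and 10 of the 20 fits that left out 1 library, with adjusted p-values reaching 0.0903, 0.107 and 0.0995. Leaving out any 1 of Sham_Wt_2227, Sham_Wt_2228, Sham_Wt_2229, Sham_KO_2347, Sham_KO_2349, Sham_KO_2350 and Sham_KO_2353 ended all 3. Leaving out Sham_Wt_2223 ended the Ms4a6b and Plac8 calls, and leaving out BDL_Wt_2233 or BDL_Wt_2236 the Plac8 call. The Ms4a4c difference passed without BDL_Wt_2237, BDL_KO_2359, BDL_KO_2365, BDL_KO_2248 or BDL_KO_2370, with an adjusted p down to 0.0215. Without BDL_KO_2248 and BDL_KO_2359 together, which changes only the estimate of the spread here, 5 of the 9 genes passed, Ms4a4c and Ms4a6c (adjusted p = 0.00420 and 0.0212) besides the 3.

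To ask whether the genes moved in proportion, the log2 level of each other gene minus that of Ccr2 was compared between groups by exact permutation tests (2-sided, 32 tests, adjusted over them). The added 0.5 FPKM compresses log2 levels under about 0.5 FPKM, which Ccr2 was in all 10 sham libraries, so differences that involve sham livers depend on it. Some ligated knockout values of Ly6c2, Ccr2, Ms4a4c, Ms4a6b and Itgam also lay under 0.5 FPKM, so the size of differences there depends on it too. With 5 libraries against 5 the smallest p is 0.00794. Between ligated knockout and ligated wild-type liver, 3 of 8 genes were lower relative to Ccr2, with differences of -1.88 log2 units for Ly6c2, -1.88 for Ms4a4c and -0.86 for Ms4a6b (exact p = 0.00794 and adjusted p = 0.0212 each). All 3 kept this call in each of the 20 repeats that left out 1 library. Leaving out 1 of the 10 sham libraries could change only the adjustment there, not the difference or the exact p. With 0.1 FPKM added the differences for Ly6c2, Ms4a4c and Ms4a6b were -2.62, -2.36 and -1.02, with the same exact and adjusted p. Plac8 differed by -0.61 (exact p = 0.0317, adjusted p = 0.0564), Itgam by 0.81 (exact p = 0.0476, adjusted p = 0.0802), Ms4a6c by -0.36, Ms4a6d by -0.21 and Chil3 by -0.11, the last of these and Ms4a6d turning to 0.13 and 0.04 with 0.1 FPKM added. Without BDL_KO_2248 and BDL_KO_2359 the values for Ly6c2, Ms4a4c and Ms4a6b were -2.34, -1.95 and -1.17, each with an exact p of 0.0357, the smallest that 3 libraries against 5 allow, and an adjusted p of 0.0571.

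After sham surgery 4 genes were lower relative to Ccr2 in the knockout, with differences of -0.96 for Ly6c2, -0.93 for Ms4a4c, -0.60 for Ms4a6b and -0.79 for Plac8 (exact p = 0.00794 to 0.0159, adjusted p = 0.0212 to 0.0339). With 0.1 FPKM added Plac8 differed by -0.54 and did not pass (exact p = 0.0794, adjusted p = 0.127), and its plain FPKM ratio to Ccr2 overlapped, at 19.7 to 57.3 in wild type and 18.7 to 40.9 in the knockout. With ligation in wild type Ly6c2 differed by -0.25 and Ms4a4c by 0.10 relative to Ccr2 (exact p = 0.524 and 0.659). With 0.1 FPKM added these 2 differences were -0.72 and -0.41 (exact p = 0.151 and 0.159), so their size, and for Ms4a4c the sign, depends on it. Lower relative to Ccr2 in that comparison were Ms4a6b by a difference of -0.74, Ms4a6c of -0.62, Plac8 of -0.70 and Itgam of -1.14 (exact p = 0.00794 to 0.0238, adjusted p = 0.0212 to 0.0448). With 0.1 FPKM added Itgam no longer passed (-0.82, exact p = 0.0635, adjusted p = 0.120) and Ms4a6d did (-0.84, exact p = 0.0159, adjusted p = 0.0363). With 1 FPKM added Ms4a6c (-0.32, exact p = 0.0397, adjusted p = 0.0747) and Plac8 (-0.22, exact p = 0.286, adjusted p = 0.352) did not pass. With ligation in the knockout the differences relative to Ccr2 were -1.18 for Ly6c2, -0.85 for Ms4a4c and -1.002 for Ms4a6b (exact p = 0.00794, adjusted p = 0.0212 each), and -0.52 for Plac8 (exact p = 0.0238, adjusted p = 0.0448). Chil3 was higher relative to Ccr2 after ligation in both genotypes, by 1.94 in wild type and 1.78 in the knockout (exact p = 0.00794 and 0.0159). Without BDL_KO_2248 and BDL_KO_2359 the values in the knockout were -1.63 for Ly6c2, -0.92 for Ms4a4c, -1.30 for Ms4a6b and 1.02 for Chil3. With Itgam in place of Ccr2 as the reference, Ly6c2, Ms4a4c and Ms4a6b differed between the ligated genotypes by -2.69, -2.68 and -1.67, and 6 genes were lower.

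**Figure D4:**
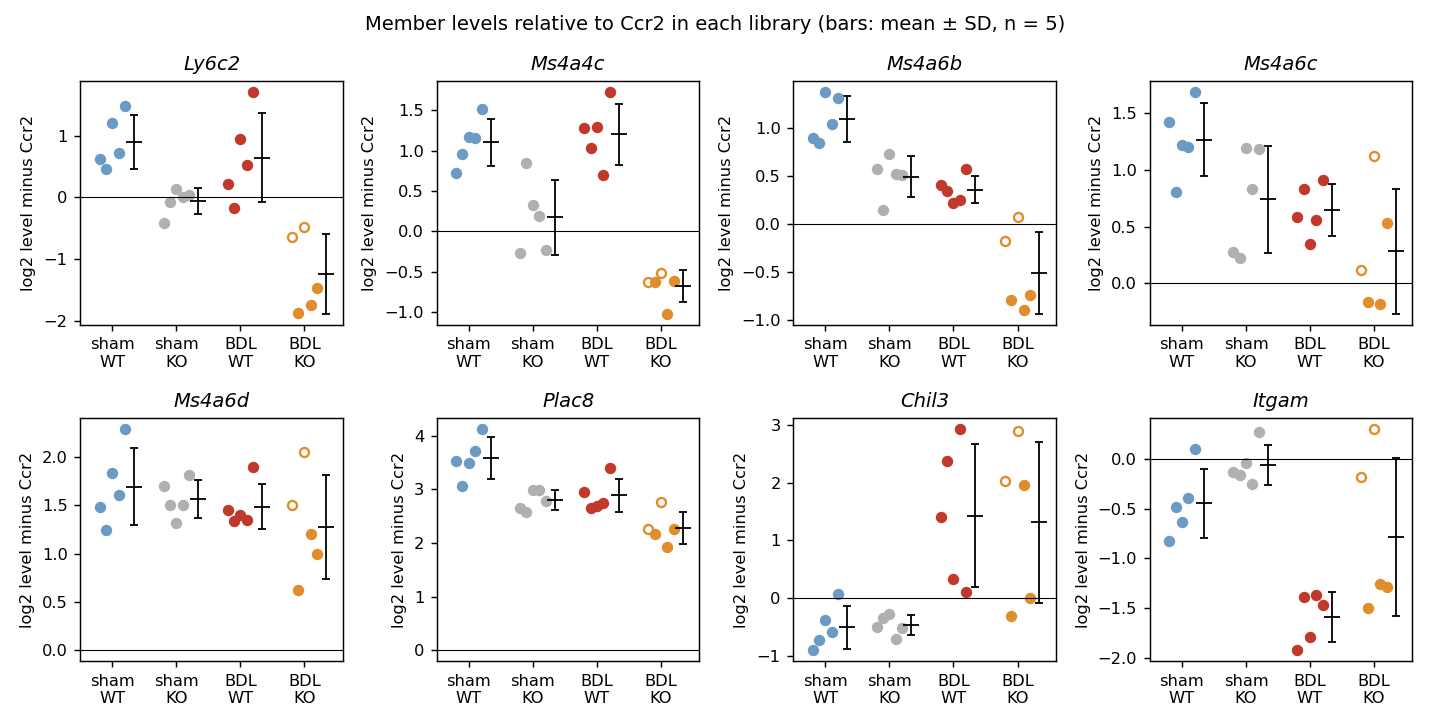
Log2 level of each of 8 genes minus that of Ccr2 in every library by group, with bars for mean ± SD (n = 5) and open circles for BDL_KO_2248 and BDL_KO_2359. Ligated knockout libraries lie below all ligated wild-type libraries for Ly6c2, Ms4a4c and Ms4a6b, and the 2 groups overlap for the other 5 genes.

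The ligands of CCR2 rose in wild type: 3 of 5 listed genes passed the filter, and all 3 rose. Ccl2, the main monocyte attractant, rose by 2.64 ± 0.57 log2 units (adjusted p = 0.00137), Ccl12 by 1.45 ± 0.35 and Ccl7 by 1.38 ± 0.49. In the knockout Ccl2 rose by 1.90 ± 0.57 (adjusted p = 0.0201), while Ccl7 and Ccl12 differed by 0.52 ± 0.49 and 0.17 ± 0.35 (adjusted p = 0.471 and 0.767). Between the ligated genotypes all 3 fell, Ccl2 by 2.33 ± 0.57, Ccl7 by 2.10 ± 0.49 and Ccl12 by 1.58 ± 0.35 (adjusted p = 0.0155, 0.0118 and 0.00853), with a median of -2.10 against 0.01 over all genes, and none passed without BDL_KO_2248 and BDL_KO_2359.

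Of 11 other genes of Ly6C-high monocytes 8 passed the filter, and all 8 rose in wild type and 4 in the knockout, or 6 without the 2 low libraries. Cd14, a co-receptor for lipopolysaccharide, rose by 5.23 ± 0.46 in wild type and by 2.49 ± 0.46 in the knockout. In whole liver, changes of the genes in this list cannot be assigned to monocytes, and their cell source was not tested. After ligation 7 of the 8 fell in the knockout against wild type, with a median of -1.44 over the 8, and 5 did so without the 2 low libraries. Cd14 fell by 2.00 ± 0.46, Fcgr1, a high-affinity Fc receptor, by 1.97 ± 0.34 and Ifitm6 by 1.47 ± 0.24 (adjusted p = 0.0118, 0.00112 and 6.20e-04). After sham surgery 1 of the 8 fell in the knockout, Mpeg1, which encodes the pore-forming protein perforin-2, by 1.35 ± 0.24 (adjusted p = 0.00499), and 3 did without the 2 low libraries.

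All 11 listed genes of Ly6C-low monocytes passed the filter, and 6 rose in wild type and 4 in the knockout, or 8 and 8 without the 2 low libraries. Cx3cr1, the fractalkine receptor, rose by 2.23 ± 0.30 and 1.66 ± 0.30, and Ear2 by 1.35 ± 0.31 and 1.08 ± 0.31. After ligation 1 of the 11 fell in the knockout, Ace by 0.69 ± 0.19 (adjusted p = 0.0293), and none without the 2 low libraries, with a median of -0.63 over the 11. Cx3cr1 differed by -0.63 ± 0.30 (adjusted p = 0.209).

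Of 10 growth factor receptors and transcription factors of myeloid cells 9 passed the filter, and 7 rose in wild type and 2 in the knockout, or 6 in the knockout without the 2 low libraries. Cebpa, a transcription factor that hepatocytes also express, fell in both. After ligation 5 of the 9 fell in the knockout against wild type, and none without the 2 low libraries. Spi1, which encodes the myeloid transcription factor PU.1, fell by 0.91 ± 0.28, Csf2ra, a receptor chain for granulocyte-macrophage colony-stimulating factor, by 0.82 ± 0.25, Irf8, a monocyte lineage factor, by 0.75 ± 0.20 and Csf3r by 0.74 ± 0.21 (adjusted p = 0.0493, 0.0476, 0.0243 and 0.0319). Of 7 genes that pair with, bind or act beside CD11b 6 passed the filter, and all 6 rose in wild type and 3 in the knockout, or 6 in the knockout without the 2 low libraries. Itgb2, its beta-2 partner chain, rose by 1.60 ± 0.32 and 1.12 ± 0.32, and Icam1, its ligand, by 1.85 ± 0.22 and 1.43 ± 0.22. Icam1 was the only 1 of the 6 to fall in the knockout after ligation, by 0.997 ± 0.22 (adjusted p = 0.00791), and none fell without the 2 libraries.

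Markers of other cells were followed beside these results. The 6 pan-leukocyte genes summed to 48.5 to 77.1 FPKM after sham surgery and 114 to 179 after ligation in wild type, and to 34.4 to 51.8 and 36.1 to 131 in the knockout. All 6 rose in wild type, 2 rose in the knockout (6 without the 2 low libraries), and 3 fell between the ligated genotypes, Coro1a and Cd53 by 1.18 ± 0.31 and 1.18 ± 0.35 and Ptprc by 0.88 ± 0.24, with none falling without the 2 low libraries. The 9 Kupffer cell markers summed to 285 to 342 FPKM after sham surgery and 518 to 716 after ligation in wild type, and to 208 to 250 and 155 to 635 in the knockout. Of these markers 3 rose in wild type and 4 in the knockout, or 7 and 8 without the 2 low libraries, and 0 fell between the ligated genotypes. After sham surgery 2 fell in the knockout, Cd5l by 1.34 ± 0.36 (adjusted p = 0.0499) and Slc40a1 by 0.66 ± 0.14 (adjusted p = 0.0180). Of 10 markers of recruited and lipid-associated macrophages, 8 rose in each genotype, while 2 fell in wild type and 1 in the knockout. They summed to 7975 to 10321 FPKM after sham surgery and 5991 to 6805 after ligation in wild type. In the knockout the sums were 8444 to 15386 and 6472 to 11325. The sum in wild type thus fell while the median change of the 10 markers was 1.99 log2 units. It is set by abundant genes that fell and does not describe most of this list. After ligation 4 of the 10 fell in the knockout against wild type, Gpnmb by 1.34 ± 0.27, Lgals3 by 1.26 ± 0.33, Cd63 by 0.86 ± 0.25 and Cd9 by 0.66 ± 0.19, and 1 did without the 2 low libraries. The part of these cells in the results on the 9 genes was not tested.

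Of 14 neutrophil markers 5 passed the filter, and they summed with the rest of the list to 3.04 to 14.0 FPKM after sham surgery and 17.0 to 51.6 after ligation in wild type, and to 3.37 to 4.13 and 11.4 to 19.8 in the knockout. All 5 rose in wild type and 3 rose in the knockout, S100a9 by 2.05 ± 0.43 and 2.38 ± 0.43. After ligation 2 fell in the knockout, Retnlg by 1.17 ± 0.32 and Csf3r by 0.74 ± 0.21 (adjusted p = 0.0297 and 0.0319), and none without the 2 low libraries. Ly6g, the defining neutrophil antigen, had means of 0 to 0.0229 FPKM in the 4 groups. Only 2 of 9 T and NK cell markers and 2 of 9 dendritic cell markers passed the filter, with a smallest adjusted p of 0.0820 over the 5 comparisons. The whole lists summed to 1.08 to 9.91 and 1.43 to 4.34 FPKM over the 20 libraries. Jchain, a plasma cell gene, rose in the knockout after ligation by 1.22 ± 0.27 (adjusted p = 0.00824), the only 1 of 4 tested B and plasma cell markers to change there.

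The summed levels of endothelial and erythroid markers separated the sham groups, the endothelial sum largely through Ly6a. The 7 endothelial markers summed to 74.1 to 144 FPKM in sham wild type and 45.0 to 60.0 in sham knockout liver, without overlap. Ly6a made up much of that sum, with means of 67.0 and 10.4 FPKM, and was the only 1 of the 7 to fall there. The median difference over the 7 was 0.12 log2 units, so the endothelial list as a whole was not lower. The 5 erythroid markers summed to 90.1 to 172 and 174 to 332 FPKM in the same groups, without overlap, and none of the 5 passed, with a smallest adjusted p of 0.225 between them. After ligation the erythroid sums were 61.7 to 369 FPKM in wild type and 169 to 1305 in the knockout. Their part in the differences between sham groups was not tested.

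Across libraries the 9 genes varied together to differing degrees. After removal of the group means, the 36 pairwise Pearson correlations over 20 libraries ranged from -0.32 to 0.87 with a median of 0.61. Without BDL_KO_2248 and BDL_KO_2359 the median was 0.40 over 18 libraries. The highest pair was Ms4a6b and Plac8 and the lowest Ly6c2 and Chil3. Among all tested genes, Atp8a1, Cyth4, Flna, Ptprc and Gab2 followed the mean of the 9 genes most closely, with correlations of 0.92 to 0.93. For single genes the closest was Sla for Ly6c2 (0.84), Dock2 for Ccr2 (0.97), Mpeg1 for Ms4a4c (0.94), Rhog for Ms4a6b (0.94), Fgr for Ms4a6d (0.91) and Ccdc88c for Chil3 (0.80). The correlations with the closest genes include BDL_KO_2248 and BDL_KO_2359 and were not repeated without them. All are descriptions over libraries that differ in depth and tissue composition, which can move many genes together.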

How the data were processed

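Polyadenylated RNA of whole mouse liver was sequenced. The file deposited by the authors gives FPKM per gene and library. HISAT2 2.0.5, featureCounts 1.5.0-p3, fastp, DESeq2 1.20.0 and CASAVA 1.8 were among the tools, and GRCm38 and mm10 the builds, per the submitters' processing notes, which give neither role nor order. No source used here names an annotation release. Groups were read from the sample titles, which serve as library names.

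Multiplied by GENCODE M21 exon lengths, 98.1 to 98.5% of low values (up to 20 fragments, tolerance 0.02) were whole numbers of fragments, which gave the depth and the fragments per gene. Log2(FPKM + 0.5) of genes with at least 0.5 FPKM in 5 libraries was fitted with limma 3.58.1 in R 4.3.3, with 1 mean per group, a variance trend and robust moderation. The 4 pairwise comparisons and the interaction were tested with Benjamini-Hochberg adjustment and a threshold of 0.05. Levels relative to Ccr2 were compared by exact permutation. Python 3.11.15, pandas 2.3.3, numpy 2.4.6 and matplotlib 3.10.9 were used for reading and drawing, and the fit was tested on simulated data. The likeness of genes was Pearson's r of deviations from group means. Shared stretches were counted in M21 transcripts.

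The 9 genes, the lists and the 2 libraries left out together were chosen with earlier results of these data known. From each list, up to 4 called genes with the largest change were named, or the 2 most abundant where fewer than 2 were called, and a few further genes (Ms4a1, Ly6g, Ly6a, Csf3r, Jchain and Ptprc among them) were named after their values were seen. A gene that this rule would name is not reported here. Alternatives were other pseudocounts, filters, scalings and weights, voom, single library types and leaving out libraries, and the Chil3 bound without single libraries was added after seeing the data.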

Additional observations from a re-analysis of the deposited data

Results flagged for a closer look

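The response of Ly6c2 to ligation differed between the genotypes by the test of the interaction itself, at -1.99 ± 0.42 log2 units (limma adjusted p = 0.0397), with 5 libraries in each of the 4 groups. All 5 ligated wild-type libraries lay above the 5 sham wild-type libraries, while the 5 ligated knockout libraries overlapped the 5 sham knockout libraries. The call was lost in 16 of the 20 fits that left out 1 library. Dixon's test for a single outlier (95% level, critical value 0.71) passed in none of the 35 groups of 5 values that could be tested, where chance flags about 1 in 20. It does not detect a pair of low libraries such as BDL_KO_2248 and BDL_KO_2359, which lay below the other 3 ligated knockout libraries for 7 of the 9 genes.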

How the results depend on the processing

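No paired analysis was possible because each library carries its own number and the groups share none. Wild-type numbers run from Sham_Wt_2223 to BDL_Wt_2240 and knockout numbers from Sham_KO_2347 to BDL_KO_2371, except BDL_KO_2248, which is nearer the wild-type numbers. What the numbers stand for is not given, so anything that follows them cannot be told apart from genotype. The count of genes that rose in wild type was 9 or, with a filter at 1 FPKM that removed Itgam, 8 under all settings. Elsewhere the alternatives that moved a count by over 1.5 times are listed, with the range over the rest. In the knockout 6 rose, but 3 with only the compared groups in the fit, 1 in libraries with Y-linked transcripts and 0 in libraries with Xist (limma, which left 2 to 3 libraries a group), with 4 to 8 in the rest, the 8 with array weights and without BDL_KO_2248 and BDL_KO_2359. After sham surgery 3 fell in the knockout, but 0 without a filter, 1 as TPM, 5 with array weights, 0 with voom, 0 in either library type, 5 without BDL_KO_2248 and BDL_KO_2359, 0 to 4 without 1 library and 2 to 4 in the rest. After ligation 8 fell in the knockout, but 1 in libraries with Xist and 6 to 9 in the rest. The interaction count of 1 became 0 with a pseudocount of 0.1, 3 with 1, 0 without a filter, 0 as TPM, 3 with quantile normalization, 0 with voom, 0 in either library type and 0 to 4 without 1 library.

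Relative to Ccr2, 5 genes changed with ligation in wild type, but 3 with a pseudocount of 1, 3 without the 2 low libraries and 3 to 5 without 1 library. In the knockout 5 changed, but 2 with Itgam as reference, 0 without the 2 libraries, and 3 to 7 without 1 library. Between the ligated genotypes 3 changed, but 5 with a pseudocount of 1, 6 with Itgam as reference, 0 without the 2 libraries, and 3 to 5 without 1 library. Both counts of 0 come from exact permutation with 3 libraries against 5, where the smallest adjusted p was 0.0571. After sham surgery 4 were lower, and 3 to 6 under the alternatives. Ly6c2 in the knockout turned to -0.0056 in libraries with Xist, and the interaction of Chil3 to 0.0172 with voom. Rescaling to TPM moved the median of all genes to 0.27 with ligation in wild type, 0.15 in the knockout, -0.12 for the knockout after sham surgery and -0.25 after ligation. The deposited values already carried median-ratio scaling, with factors of 1.00. TPM replaced that with division by each library's FPKM sum, from 315016 in BDL_Wt_2236 to 547332 in Sham_KO_2347. Why the sums differed was not tested. Of the changes of single genes, 819 of those without 1 library kept their direction and side of the threshold, 67 lost and 14 gained a call, and under other settings 588, 58 and 22 did, with 2 reversed. Part of these counts was fixed in advance. Leaving out a library of a group not compared can change only the estimate of the spread in a pairwise comparison, and median-ratio scaling repeated the main fit. Low levels limit Ly6c2, Ms4a4c, Chil3 and Itgam in sham and knockout liver.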
